A study of Mus musculus with 12 samples.

Results

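The 10 genes described here encode components and receptors of the complement system: C1qa, C1qb, C1qc, C1ra, C1rb, C1s1, C3, Cfb, C3ar1 and C5ar1. They were chosen by symbol out of the 55335 genes in the count files and followed over 4 groups of mouse dendritic cell cultures. C1ra was picked for its fall in CTCF-deficient cells, so its values in the libraries that fall came from are given as a description with no test. No threshold on a value entered the choice. The other members were taken for their place in the pathway, with earlier results of these data known. Their p values are therefore not free of that choice.

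Complement is a cascade of plasma proteins that tags microbes and dying cells for uptake and calls in inflammatory cells. In the classical pathway the recognition molecule C1q, built from the products of C1qa, C1qb and C1qc, carries the proteases C1r and C1s. In the alternative pathway factor B, the product of Cfb, joins cleaved C3 to form the enzyme that cleaves more C3. The small fragments released from C3 and C5 act on the receptors encoded by C3ar1 and C5ar1. Macrophages and dendritic cells make many of these proteins themselves, outside the liver.

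RNA sequencing covered bone marrow-derived dendritic cells (BMDCs) from young adult C57BL/6 mice of both sexes, grown for 6 days with GM-CSF and enriched for CD11c+ cells. WT cells carried the Rosa26-CreER transgene with wild-type Ctcf (CreER), and KO cells carried the same transgene with floxed Ctcf (CreER;CTCF fl/fl), which 4-OH tamoxifen on the first culture day deletes. WTL and KOL are the same 2 genotypes after 100 ng/ml LPS for 3 hours, and each of the 4 groups had 3 libraries, described as biological replicates. CreER is expressed in every cell type, so Ctcf was lost from precursors onward and not only in mature dendritic cells. The study's methods describe 4-OH tamoxifen as removing Ctcf in KO and not in WT cultures, and they can be read as saying that WT cultures did not receive it, in which case its effect and that of CTCF loss cannot be told apart. In such bulk samples, fewer cells of a type and less RNA per cell cannot be told apart either.

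Libraries held 12769773 to 16586334 expected counts, and values below are counts normalized by TMM (a scaling to the bulk of genes) unless TPM is named. Ctcf itself had 1051, 987 and 975 normalized counts in WT, 886, 817 and 745 in WTL, 569.7, 562 and 516 in KO and 563, 530.0 and 526 in KOL. All 6 libraries labelled KO or KOL lay below all 6 others, and gene-level counts also take reads from outside the deleted part. All 10 dendritic cell markers listed were tested, and their summed TPM was 10900 to 11500 in WT and 7500 to 7800 in KO. Most of that sum was Cd74, H2-Aa and H2-Ab1, at means of 5130, 3520 and 1740 TPM in WT and 4250, 1480 and 923 in KO. In KO against WT 2 were called higher (Itgax and Batf3) and 4 lower (H2-Ab1, H2-Aa, Flt3 and Ccr7). Of all genes, 17.3% were called higher and 17.2% lower. Endothelial markers summed to 0.24 to 0.7 TPM in WT and 16.2 to 20.4 in KO, with 2 of 3 tested called higher, beside 17.3% of all genes. Most of that KO sum was Egfl7, at a mean of 18.1 TPM in KO and 10.3 in KOL against 0.157 in WT and 0.23 in WTL. Egfl7 passed the filter only through the CTCF-deficient libraries, so its call is a description. Kdr averaged 0.44 and Cdh5 0.0333 TPM in KO, against 0.213 and 0.133 in WT. B cell and erythroid markers summed to at most 1.71 in any library. The part of these shifts in the values below was not tested. In WTL replicate 2, 5.17% of counts were ribosomal RNA against at most 1.19% elsewhere. Beyond counting noise, replicates spread by 4.92% in WT and 2.62% in KO, against 13.7% in WTL and 14.44% in KOL (edgeR common dispersion). The fit shared each gene's estimate of spread over the 4 groups, so its p values do not reflect these differences. Whether the close KO libraries came from separate cultures cannot be told from the counts. A member was called changed at an adjusted p under 0.05 (edgeR quasi-likelihood, Benjamini-Hochberg over 14008 genes) with a fold above 1.3 for KO against WT, 1.5 for KOL against WTL and 2 for either LPS comparison. C1rb, at most 2.47 expected counts in any library, was below the filter, which left 9 of the 10 members tested.

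**Figure D1:**
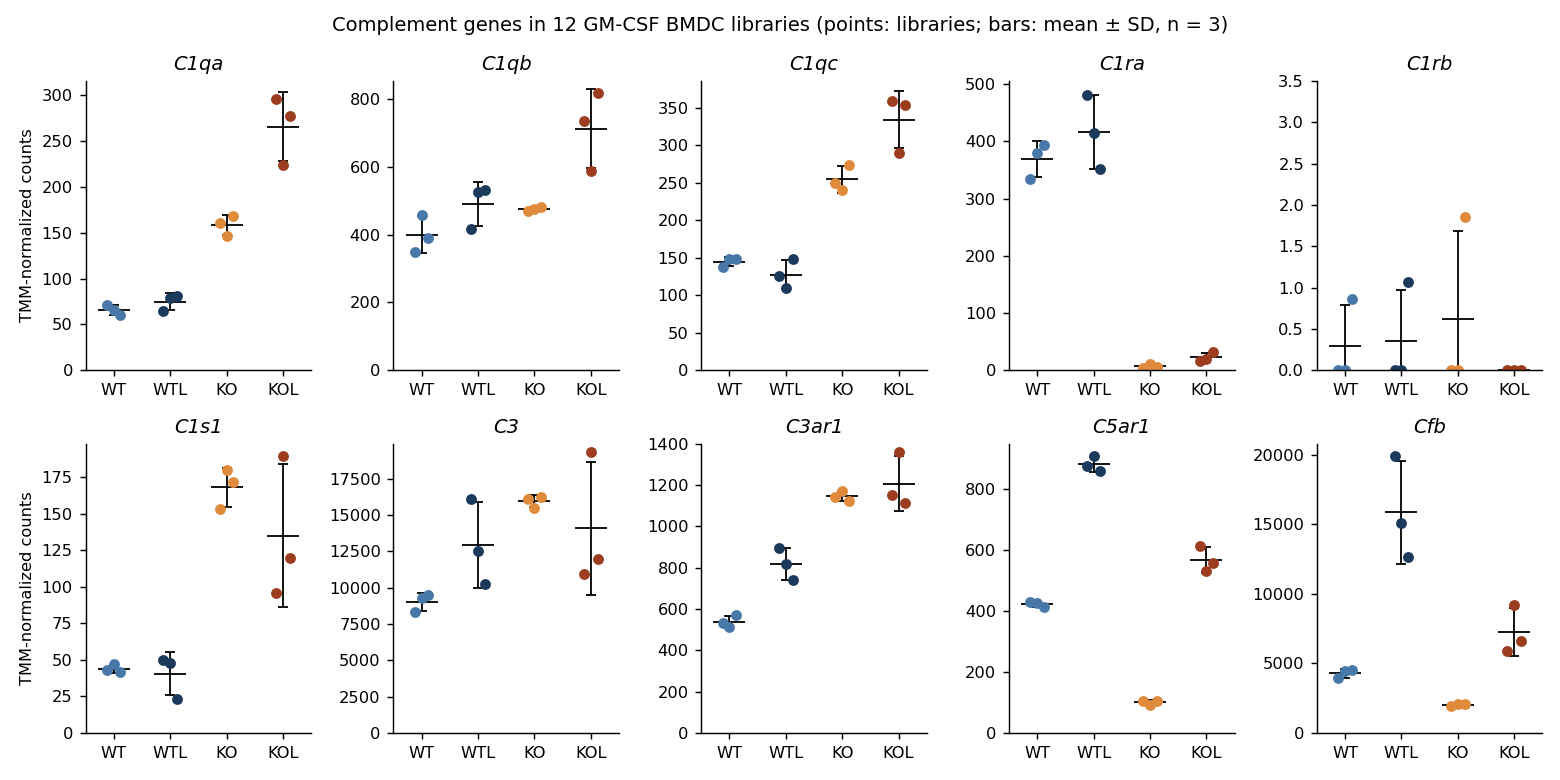
Normalized counts (y axis) of each complement gene in the 4 groups (x axis); points are libraries, and bars are the mean ± SD of 3 libraries. C1ra falls to at most 32.0 in KO and KOL while C1s1 lies higher there, C1qa and C1qc step up with CTCF depletion, and C5ar1 and Cfb are lowest in KO and rise with LPS in both genotypes.

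The 3 C1q genes lie side by side on chromosome 4, all on the minus strand (mm10; C1qb at chr4:136880129-136886187, C1qc at chr4:136889804-136893065 and C1qa at chr4:136895917-136898803). C1qa and C1qc were higher in CTCF-deficient cells with and without LPS, whereas C1qb, the most abundant of them, was not called in either comparison. C1qa had 71.6, 65.4 and 60.5 normalized counts in WT and 64.7, 79.1 and 80.8 in WTL. In KO it had 161, 147 and 168, and in KOL 296, 223 and 278. Every CTCF-deficient library lay above every WT and WTL library, and KOL lay above KO without overlap. By edgeR, C1qa rose by 1.27 ± 0.14 (log2, SE) in KO against WT (2.41-fold, adjusted p = 3.07e-06) and by 1.82 ± 0.13 in KOL against WTL (3.53-fold, adjusted p = 7.59e-08).

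C1qc had 138, 148 and 148 normalized counts in WT and 125, 109 and 148 in WTL. The KO libraries had 249, 240.0 and 274, and the KOL libraries 359, 290.2 and 353. WT and WTL overlapped, KO lay above both, and KOL lay above KO. The change in KO against WT was 0.81 ± 0.11 on the log2 scale (1.76-fold, edgeR adjusted p = 4.66e-05), and that in KOL against WTL was 1.39 ± 0.12 (2.62-fold, adjusted p = 3.71e-07). C1qb had 349, 458 and 392 normalized counts in WT, 415, 526 and 532 in WTL, 471, 477 and 483 in KO, and 734, 587 and 817 in KOL. The KO libraries lay just above the highest WT library, and the KOL libraries lay above all 9 others. For C1qb the log2 difference of KO from WT was 0.25 ± 0.13 (edgeR adjusted p = 0.124), and that of KOL from WTL was 0.53 ± 0.13 (adjusted p = 0.00339), a fold of 1.45 that stayed under the cutoff of 1.5. Without WTL replicate 3 or without KOL replicate 2 it passed that cutoff, at 0.59 and 0.65.

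LPS gave none of the 3 genes a called change. In WTL against WT the log2 values were 0.19 ± 0.15 for C1qa, 0.30 ± 0.13 for C1qb and −0.18 ± 0.13 for C1qc (edgeR adjusted p = 0.279, 0.0576 and 0.229). In KOL against KO they were 0.75 ± 0.12, 0.58 ± 0.13 and 0.39 ± 0.11 (adjusted p = 7.59e-05, 0.000937 and 0.00535), with folds of 1.68, 1.5 and 1.31 that stayed under the cutoff of 2. The response of C1qc to LPS in KO exceeded that in WT by 0.57 ± 0.17 (edgeR interaction, adjusted p = 0.0289), while the same difference for C1qa was 0.55 ± 0.19 (adjusted p = 0.0648) and for C1qb 0.28 ± 0.18 (adjusted p = 0.321). The C1qc call was lost in 5 of the 12 fits that left out 1 library, those without WTL replicate 2, KO replicate 1 or 2, or KOL replicate 1 or 3, where adjusted p was 0.0644 to 0.0836.

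Because TPM corrects for transcript length, the subunits can be set against each other on that scale. The summed TPM of the 3 genes was 62.9 to 73.1 in WT, 47.6 to 59.5 in WTL, 88.9 to 93.9 in KO and 81.7 to 107.0 in KOL. C1qb made up 63.7 to 69.4% of that sum in WT and 69.8 to 74.4% in WTL, against 53.4 to 56.4% in KO and 53.8 to 57.4% in KOL. The share of C1qa was 10.5 to 13.9% in WT and 18.4 to 19.7% in KO, and the shares of WT and KO did not overlap for any of the 3 subunits. Transcripts of the subunits were thus present in unequal amounts in every library, and less so in CTCF-deficient ones. The macrophage marker list, 12 genes of which 10 were tested, summed to 1030 to 1110 TPM in WT and 1080 to 1130 in KO, and to 579 to 712 in WTL and 504 to 600 in KOL. On log2(TPM + 1) the median change of all genes was −0.44 in WTL against WT and −0.38 in KOL against KO. The C1q and macrophage sums with and without LPS therefore cannot be set against each other as levels per gene. In KO against WT, 3 of these markers were called higher and 3 lower, beside 17.3% and 17.2% of all genes. Vsig4 and Folr2 had at most 1.96 expected counts in any library. The part of macrophage-like cells in the C1q values was not tested.

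**Figure D2:**
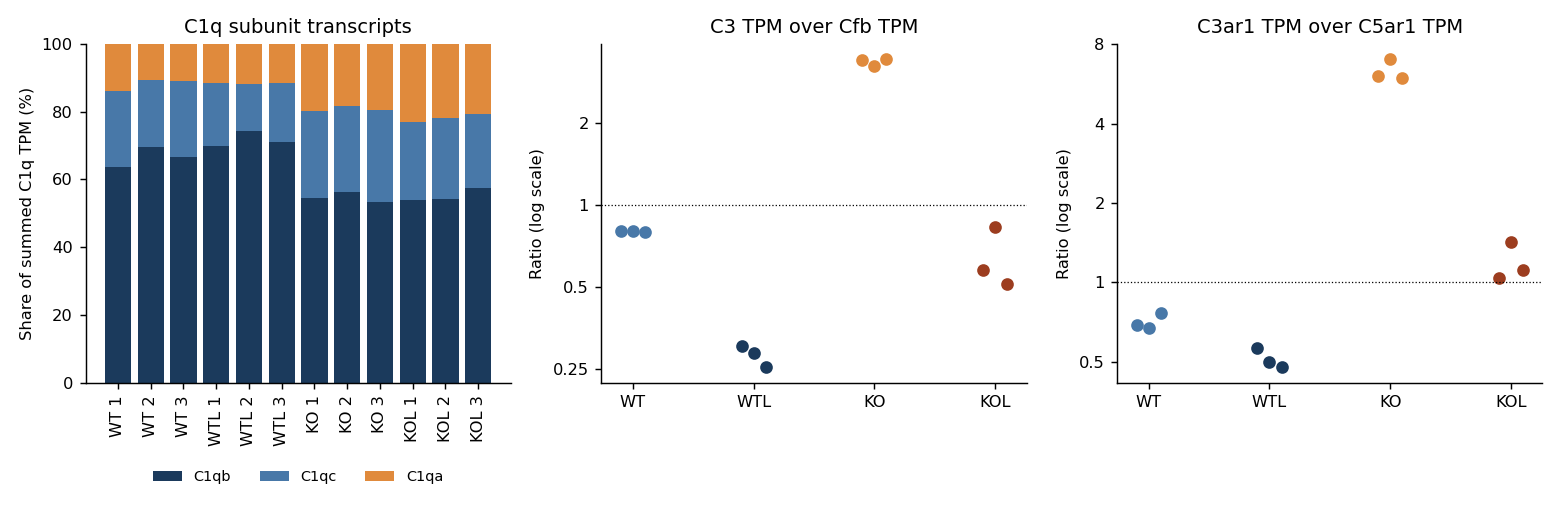
Left, share of each subunit in the summed C1q TPM (%, y axis) in each of the 12 libraries (x axis). Middle and right, C3 TPM over Cfb TPM and C3ar1 TPM over C5ar1 TPM (log2-spaced y axis) by group, 1 point per library, with a dotted line at 1. C1qb takes a smaller share in the 6 CTCF-deficient libraries, and the KO libraries stand apart in both ratios, at 3.21 to 3.41 and 5.93 to 7.0.

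The windows around the starts of C1qb and C1qc are shown because these adjacent genes differed in whether they were called (RefSeq sequences, build GRCm38.p6, minus strand, 250 bases before to 50 bases after the start). Capitals mark the PU.1 core GAGGAA, searched on both strands, where PU.1 is the transcription factor that myeloid cells depend on.
C1qb, chr4:136886151-136886450: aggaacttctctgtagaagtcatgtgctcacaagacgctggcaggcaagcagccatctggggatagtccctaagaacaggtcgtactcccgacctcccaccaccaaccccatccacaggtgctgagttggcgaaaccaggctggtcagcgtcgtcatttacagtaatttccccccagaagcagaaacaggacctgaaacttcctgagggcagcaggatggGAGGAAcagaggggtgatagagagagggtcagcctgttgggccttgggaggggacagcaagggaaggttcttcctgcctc
C1qc, chr4:136892865-136893164: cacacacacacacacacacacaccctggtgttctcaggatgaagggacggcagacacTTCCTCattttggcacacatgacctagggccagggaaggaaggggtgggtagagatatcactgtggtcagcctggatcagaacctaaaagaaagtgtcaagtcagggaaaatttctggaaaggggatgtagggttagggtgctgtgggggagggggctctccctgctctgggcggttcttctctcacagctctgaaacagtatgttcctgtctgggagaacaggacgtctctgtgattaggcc
The core lies at position −30 relative to the start of C1qb and, on the other strand, at position −193 relative to that of C1qc used by RefSeq. That C1qc start is inside the gene as GENCODE annotates it, so these positions cannot be set against each other. It occurs in 28.3% of the 32851 windows of this length. Matches are a description of the letters and not a sign of binding.

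The C1r and C1s genes form a cluster on chromosome 6 (mm10) in the order C1rl, C1ra, C1s1, C1rb and C1s2. C1ra (chr6:124512405-124523443, plus strand) and C1s1 (chr6:124530345-124542359, minus strand) face each other 6901 bases apart. They encode proteases of the same C1 complex, and they moved in opposite directions with CTCF depletion. C1ra had 334, 379.9 and 393 normalized counts in WT and 481, 414 and 352 in WTL. In KO it had 4.49, 10.6 and 6.48, and in KOL 16.1, 18.7 and 32.0. The CTCF-deficient libraries held 5 to 30 expected counts each, far below every other library. C1ra was chosen on its KO libraries, which differed from WT by −5.67 ± 0.24 on the log2 scale (51.1-fold lower), given here with no test. The reason given for the choice names KO and not KOL. In KOL against WTL, C1ra fell by 4.20 ± 0.20 (18.4-fold lower, edgeR adjusted p = 1.26e-09). KOL lay above KO by 1.64 ± 0.38 on counts of 15 to 30 against 5 to 11, and WTL differed from WT by 0.17 ± 0.14, both given with no test.

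C1s1, whose product is the protease that C1r activates, had 43.2, 47.0 and 41.5 normalized counts in WT and 49.9, 47.7 and 23.4 in WTL. It had 153, 179.5 and 171 in KO and 95.7, 189.5 and 119.6 in KOL. All 6 CTCF-deficient libraries lay above all 6 others, and KO and KOL overlapped. C1s1 rose by 1.93 ± 0.25 in KO against WT (3.82-fold, edgeR adjusted p = 1.89e-05) and by 1.75 ± 0.27 in KOL against WTL (3.37-fold, adjusted p = 0.000109). LPS gave it no called change, at −0.14 ± 0.30 in WT and −0.32 ± 0.22 in KO (edgeR adjusted p = 0.701 and 0.216). The ratio of C1ra TPM to C1s1 TPM was 5.01 to 9.28 in WT and 6.88 to 14.8 in WTL, against 0.0216 to 0.0581 in KO and 0.0971 to 0.220 in KOL. The fibroblast and stromal marker list, which covers cells that also make C1s, summed to 1.07 to 1.45 TPM in WT and 5.89 to 6.25 in KO. Of its 10 genes 3 were tested and 1, Pdgfrb, was called higher in KO, beside 17.3% of all genes. The mean TPM of Col1a1, Col1a2, Dcn and Lum stayed under 1 in every group. The part of stromal cells in the C1s1 values was not tested.

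C1rb (chr6:124570294-124581171, plus strand) is a near copy of C1ra, so reads of the pair can be divided between them. It was at 0 expected counts in 9 of the 12 libraries, and the other 3 (replicate 3 of WT, WTL and KO) held 0.56, 1.22 and 2.47, all under a floor of 3 counts, so no fold is given. In those 3 libraries, and only there, C1ra was also not at a whole number (455.44, 330.78 and 6.53). Reads divided between the pair would leave such values, so these libraries show no C1rb counts apart from C1ra. The coding sequences of the pair (GENCODE M21) were identical at 97.9% of aligned positions, with an unbroken identical run of 757 bases, and 43.6% of all 100-base windows of the C1ra coding sequence occur unchanged in C1rb. Over the whole C1ra transcript 34.5% of such windows occur in that of C1rb. Transcript lengths were 2981 bases for C1ra and 2429 for C1rb, so reads outside the coding sequence can also separate the genes. The coding stretch with the most differences is printed because, within the coding sequence, only reads over differing positions separate them. Differing bases are in capitals (coding positions 1390 to 1449 of each).
C1ra: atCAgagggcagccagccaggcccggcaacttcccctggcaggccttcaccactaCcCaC
C1rb: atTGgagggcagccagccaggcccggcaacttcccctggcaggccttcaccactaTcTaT
The fall of C1ra was therefore also computed on the summed counts of both genes, where KOL against WTL stayed at −4.20. The CTCF-deficient libraries thus held few counts under either gene. C1s1 and its own copy C1s2 were 94.9% identical in coding sequence, and C1s2 held at most 11.5 expected counts in any library.

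The windows around the starts of C1ra and C1rb are shown because the protein depleted in these cells, CTCF, binds a known DNA motif (RefSeq sequences, GRCm38.p6, plus strand, 250 bases before to 50 after the start). Capitals mark the CTCF core motif and the STAT motif TTCNNNGAA, both searched on both strands, with no overlap between the 2.
C1ra, chr6:124512371-124512670: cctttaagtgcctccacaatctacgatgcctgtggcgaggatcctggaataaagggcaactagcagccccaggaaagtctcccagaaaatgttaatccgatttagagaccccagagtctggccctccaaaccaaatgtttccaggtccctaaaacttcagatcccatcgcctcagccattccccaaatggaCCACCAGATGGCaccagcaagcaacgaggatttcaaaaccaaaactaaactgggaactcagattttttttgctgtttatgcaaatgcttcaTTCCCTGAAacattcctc
C1rb, chr6:124570180-124570479: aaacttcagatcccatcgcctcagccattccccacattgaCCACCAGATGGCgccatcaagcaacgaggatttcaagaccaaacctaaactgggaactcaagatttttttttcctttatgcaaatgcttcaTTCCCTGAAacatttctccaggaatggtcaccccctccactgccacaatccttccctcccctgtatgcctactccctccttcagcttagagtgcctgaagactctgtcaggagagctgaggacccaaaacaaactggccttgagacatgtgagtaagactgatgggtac
The CTCF core reads CCACCAGATGGC in both windows and lies at position −59 relative to the start of C1ra used by RefSeq, which is inside the gene as GENCODE annotates it, and at position −210 relative to that of C1rb. The windows are offset by 151 bases, and over the stretch they share they were 92.7% identical. Of 32851 windows, 2.43% hold the CTCF core and 8.3% the STAT motif. Among the 9 windows found for 8 of the members, the CTCF core occurred in these 2. No binding data were analysed here, and a match is a description of the letters.

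The fall was not limited to C1ra. C1rl, which encodes a C1r-like protease and ends 1761 bases before C1ra begins (chr6:124493113-124510643, plus strand), went from 166 ± 7.63 normalized counts in WT to 11.1 ± 2.42 in KO, and from 143 ± 6.24 in WTL to 12.2 ± 2.30 in KOL (SD, n = 3). By edgeR it fell by 3.89 ± 0.17 in KO against WT (adjusted p = 2.79e-10) and fell by 3.54 ± 0.18 in KOL against WTL (adjusted p = 1.59e-09). C1ra and C1rl share no 100-base window of coding sequence. Of the 11 tested genes within 200000 bases of the cluster that are not members, C1rl was the only one called lower in KO against WT, and 6 were called higher (Cd163, Pex5, C1s2, Phb2, Atn1 and Eno2), beside 17.3% higher and 17.2% lower of all genes. C1s2 held at most 5.21 expected counts in a WT library and 11.5 in a KO library. It passed the filter only through KO, so its call is a description. Cd163, a scavenger receptor of macrophages, rose by 1.37 ± 0.27 (edgeR adjusted p = 0.000949), and Pex5, a receptor for protein import into peroxisomes, rose by 1.16 ± 0.09 (adjusted p = 6.92e-08). Next to the C1q genes, Zbtb40 was the only other tested gene in that distance and differed by −0.01 ± 0.09 (adjusted p = 0.966).

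**Figure D3:**
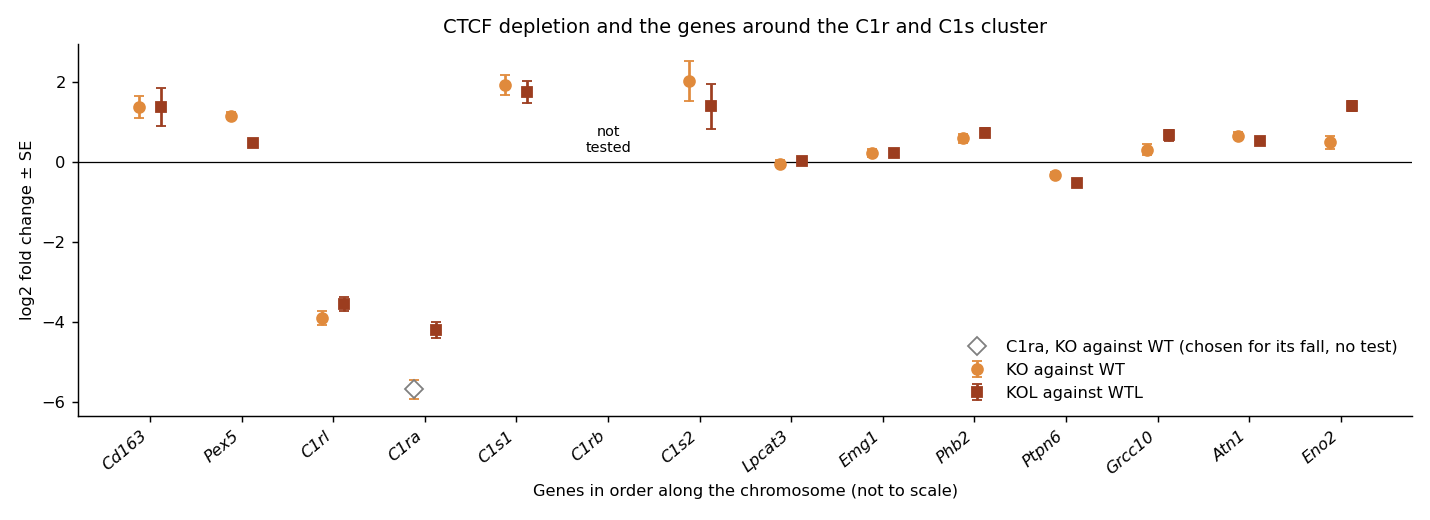
Log2 fold change with its SE (y axis) of the tested genes around the C1r and C1s cluster in chromosome order (x axis, not to scale), for KO against WT (circles) and KOL against WTL (squares). C1rl and C1ra fall while C1s1 and C1s2 lie above 0 in both comparisons, and the C1ra value of KO against WT (open diamond) is a description.

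C3 (chr17:57203970-57228136, minus strand), the protein on which all complement pathways converge, was the most abundant member in KO on the TPM scale. C3 had 8334, 9274 and 9493 normalized counts in WT and 16095, 12483 and 10260 in WTL. It had 16066, 15466 and 16255 in KO and 10965, 19343 and 11973 in KOL. The KO libraries were close to each other and above all WT libraries, whereas WTL and KOL spread widely and overlapped. C3 rose by 0.82 ± 0.18 in KO against WT (1.76-fold, edgeR adjusted p = 0.00237). In KOL against WTL it differed by 0.12 ± 0.18 (adjusted p = 0.621), with values from −0.17 to 0.31 when 1 library was left out. With LPS it differed by 0.52 ± 0.18 in WT (1.43-fold, under the cutoff of 2, adjusted p = 0.0251) and by −0.18 ± 0.18 in KO (adjusted p = 0.409). The difference between those responses was −0.70 ± 0.26 (edgeR interaction, adjusted p = 0.0836). It passed the threshold without KOL replicate 2 (−0.99, adjusted p = 0.00112) or without WTL replicate 3 (−0.84, adjusted p = 0.0346).

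Cfb (chr17:34856374-34862518, minus strand) was the most abundant member in WT, WTL and KOL on the TPM scale. It had 3915, 4424 and 4529.7 normalized counts in WT and 19898, 15069 and 12647 in WTL. It had 1969, 2060.4 and 2072 in KO and 5895, 9212 and 6636 in KOL. The 4 groups did not overlap, in the order KO, WT, KOL and WTL. LPS raised Cfb by 1.89 ± 0.17 in WT (3.70-fold, edgeR adjusted p = 2.03e-07) and by 1.83 ± 0.17 in KO (3.56-fold, adjusted p = 2.4e-07). With CTCF depletion it fell by 1.08 ± 0.16 in KO against WT (2.11-fold lower, adjusted p = 9.27e-05) and fell by 1.13 ± 0.16 in KOL against WTL (2.19-fold lower, adjusted p = 5.7e-05). The difference between the 2 LPS responses was −0.05 ± 0.23 (edgeR interaction, adjusted p = 0.907). A read-through gene that overlaps Cfb held at most 4.23 expected counts in any library.

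C3 and Cfb, whose products meet in the same enzyme, thus moved apart with CTCF depletion. The ratio of C3 TPM to Cfb TPM was 0.793 to 0.804 in WT and 0.254 to 0.305 in WTL, against 3.21 to 3.41 in KO and 0.511 to 0.828 in KOL. KO lay above the other groups and WTL below them, while the KOL range took in that of WT.

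C3ar1 (chr6:122847138-122856161, minus strand), the receptor for the C3a fragment, had 532, 513 and 571 normalized counts in WT and 896, 820.0 and 740.0 in WTL. It had 1145, 1170.4 and 1124 in KO and 1152, 1358 and 1114 in KOL. WT was lowest, WTL lay between, and KO and KOL overlapped at the top. C3ar1 rose by 1.09 ± 0.09 in KO against WT (2.13-fold, edgeR adjusted p = 2.38e-07). In KOL against WTL it differed by 0.56 ± 0.09 (1.48-fold, adjusted p = 0.000149), just under the cutoff of 1.5, and it passed that cutoff in 6 of the 12 fits without 1 library, those without any 1 of the WT replicates, WTL replicate 1, KOL replicate 1 or KOL replicate 3 (0.60 to 0.63). With LPS it differed by 0.60 ± 0.09 in WT (1.52-fold, under the cutoff of 2, adjusted p = 5.53e-05) and by 0.08 ± 0.09 in KO (adjusted p = 0.467). The LPS response in KO differed from that in WT by −0.53 ± 0.13 (edgeR interaction, adjusted p = 0.0112), and without WT replicate 1 or WT replicate 2 adjusted p was 0.0561 and 0.0676.

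C5ar1 (chr7:16246743-16259540, minus strand), the main receptor for the C5a fragment, had 428, 425 and 413 normalized counts in WT and 877, 908 and 860.2 in WTL. It had 105, 92.2 and 105 in KO and 614, 530.0 and 557 in KOL. The 4 groups did not overlap, in the order KO, WT, KOL and WTL, which is also the order of Cfb. C5ar1 fell by 2.07 ± 0.08 in KO against WT (4.19-fold lower, edgeR adjusted p = 1.63e-10) and fell by 0.64 ± 0.07 in KOL against WTL (1.55-fold lower, adjusted p = 5.03e-06). LPS raised it by 1.06 ± 0.07 in WT (2.09-fold, adjusted p = 1.07e-08) and by 2.49 ± 0.08 in KO (5.63-fold, adjusted p = 4.79e-12). The response in KO exceeded that in WT by 1.43 ± 0.11 (edgeR interaction, adjusted p = 1.97e-06), and the KOL level still lay below that of WTL. Without any 1 of the WT replicates the response in WT was 0.97 to 0.99, just under the cutoff of 2-fold.

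On the TPM scale C3ar1 stood at 0.669 to 0.768 times C5ar1 in WT and at 5.93 to 7.0 times in KO. In LPS-treated cells the ratio was 0.477 to 0.565 in WTL and 1.04 to 1.42 in KOL. The neutrophil marker list, cells rich in C5a receptors, summed to 378 to 401 TPM in WT and 195 to 227 in KO. Most of that sum was S100a8 and S100a9, at means of 244 and 128 TPM in WT and 168 and 37.5 in KO. In KO against WT 6 of its 8 tested genes were called lower and 1 higher, beside 17.2% and 17.3% of all genes. In WTL and KOL the sums were 350 to 443 and 288 to 337. Ly6g and Elane averaged at most 1.26 TPM in any group. The part of such cells in the C5ar1 values was not tested.

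**Figure D4:**
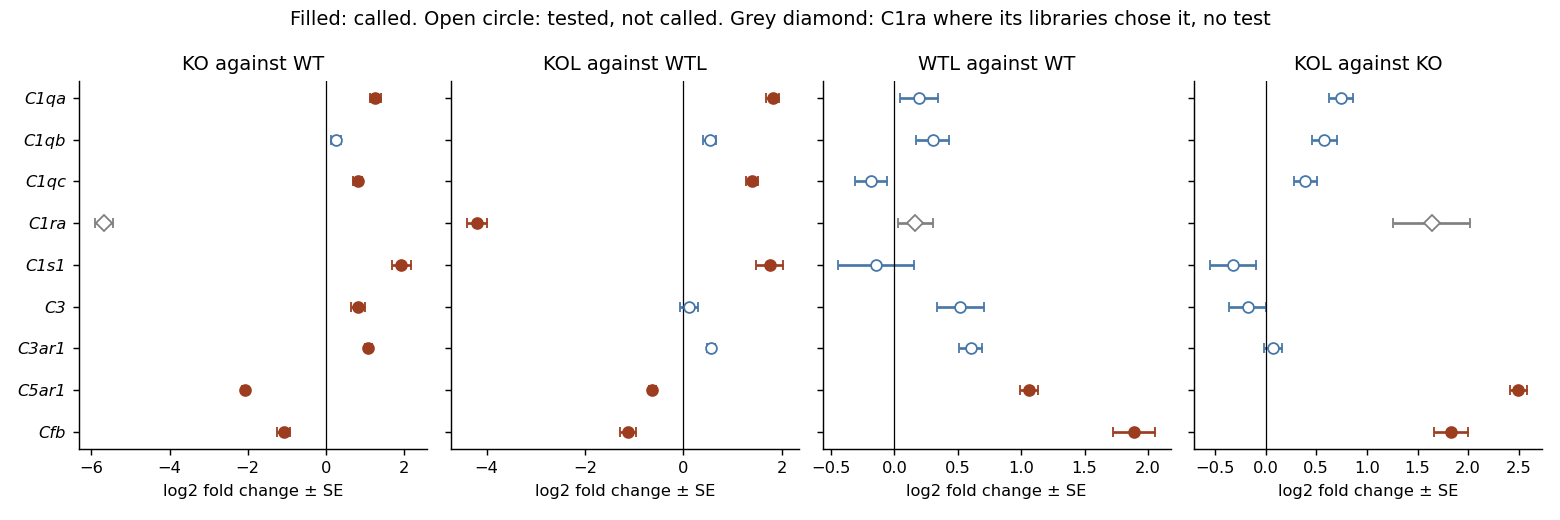
Log2 fold change with its SE (x axis) of the 9 tested members (y axis) in 4 comparisons; filled symbols were called, open circles were tested and not called, and grey diamonds are C1ra values given with no test. C5ar1 and Cfb are lower with CTCF depletion and higher with LPS in both genotypes, and C1qa, C1qc and C1s1 are higher with CTCF depletion in both.

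Counted over the 9 tested members, KO against WT held 5 called higher and 3 called lower, beside 17.3% and 17.2% of all genes. C1ra is 1 of the 3, this comparison helped to choose the list, and nothing is read from these counts. KOL against WTL held 3 higher (C1qa, C1qc and C1s1) and 3 lower (C1ra, C5ar1 and Cfb), beside 12.5% and 12.5% of all genes. WTL against WT held 2 higher (C5ar1 and Cfb) and 0 lower, beside 12.6% and 9.99%. KOL against KO held 3 higher (C5ar1, Cfb and, as a description, C1ra) and 0 lower, beside 15.1% and 13.0%. Under TMM, 0 members lay below 0 in these LPS comparisons at an unadjusted p under 0.05 by edgeR, and DESeq2 also called 0 lower. By library size alone, C1qc (−0.69) and C1s1 (−0.65) in WT and C1s1 (−0.70), C3 (−0.55) and C3ar1 (−0.30) in KO lay below 0 at an adjusted p of 0.0488 or less by edgeR, each under the 2-fold cutoff. C1ra, given with no test in these comparisons, lay at −0.34 in WT on that scaling. Of the interaction, 3 were called higher in KO (C1qc, C1ra and C5ar1, with C1ra as a description) and 1 lower (C3ar1), beside 8.7% and 8.75% of all genes. These comparisons share control groups, so they are not independent of each other.

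How libraries are scaled matters for the LPS comparisons. Under TMM the median log2 change of all genes was −0.02 in WTL against WT and −0.02 in KOL against KO. Scaled to library size alone it was −0.53 and −0.40, and on log2(TPM + 1) it was −0.44 and −0.38. In WTL against WT the numbers of genes called higher and lower went from 1766 and 1400 under TMM to 1112 and 3546 by library size alone, and in KOL against KO from 2113 and 1819 under TMM to 1464 and 3265. The shift in KO against WT was smaller, at −0.12 by library size, with 1954 genes higher and 3117 lower against 2427 and 2405 under TMM, and the interaction went from 1218 and 1225 to 1864 and 692. With the shift, the directions of the small LPS values in WT flipped for C1qa (−0.32 by library size), C1qb (−0.21) and C1ra (−0.34), and that of C3ar1 in KO flipped to −0.30. On log2(TPM + 1), C3 in WT (−0.03) and C1qc in KO (−0.07) flipped as well. C5ar1 in WTL against WT stayed higher at 0.55 and lost the 2-fold cutoff, while Cfb stayed at 1.38. None of the called directions in KO against WT or KOL against WTL changed with the scaling.

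**Figure D5:**
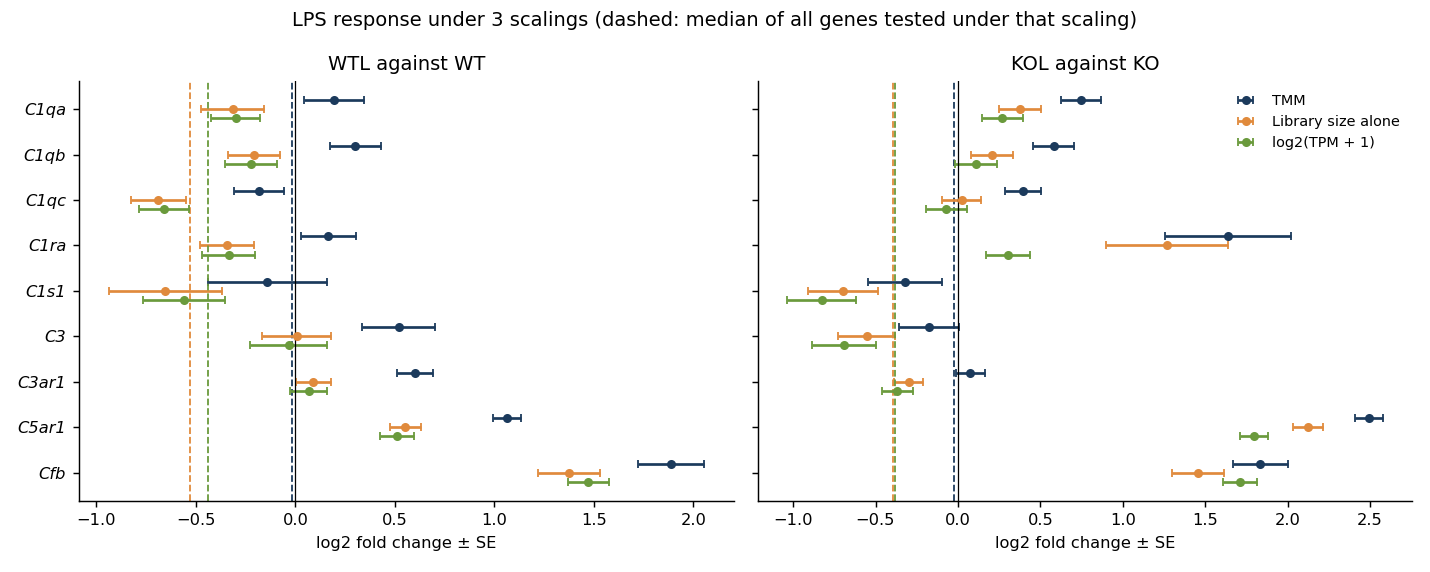
Log2 fold change with its SE (x axis) of the 9 tested members (y axis) for LPS in WT (left) and in KO (right) under TMM, library size alone and log2(TPM + 1); dashed lines are the median of all genes under each scaling. Members shift left together with the median line, and Cfb and C5ar1 stay to the right of 0 under all 3.

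Beyond the members, 50 other complement genes were listed by textbook role, of which 22 were tested and 23 had at most 3 expected counts in every library. These 22 include genes that passed the filter only through the groups where they were high. In KO against WT 9 of the 22 were called higher and 4 lower, beside 17.3% and 17.2% of all genes, with a median log2 change of 0.39 against −0.01 for all genes. The 9 ranged from 4 to 10 over the other settings. In KOL against WTL 2 were higher and 5 lower, beside 12.5% and 12.5% of all genes, with a median of 0.34 against −0.03. With LPS, 2 were higher and 3 lower in WT, beside 12.6% and 9.99% of all genes, and 3 higher and 4 lower in KO, beside 15.1% and 13.0%, with medians of −0.05 and −0.18. The 2 higher in WT became 0 with only the 6 libraries compared, with 10 counts in every library and in the 3 limma settings. Of the starters of the lectin and classical pathways 6 of 14 were tested, of the terminal components 1 of 7, of the receptors 8 of 10 and of the regulators 6 of 17. Properdin, the product of Cfp and the stabilizer of the alternative enzyme, rose by 0.56 ± 0.08 in KO against WT (edgeR adjusted p = 3.22e-05), from 6398 ± 334 to 9445 ± 184 normalized counts.

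Clu, which encodes the regulator clusterin, showed the largest fall among the 10 listed genes of at least 100 normalized counts on average, which leaves out C1rl. It went from 408 ± 38.9 normalized counts in WT to 43.5 ± 4.57 in KO and from 753 ± 197 in WTL to 183 ± 31.4 in KOL. By edgeR it fell by 3.22 ± 0.21 in KO against WT (adjusted p = 1.73e-08) and fell by 2.04 ± 0.17 in KOL against WTL (adjusted p = 2.81e-07). LPS raised Clu by 2.07 ± 0.23 in KO (adjusted p = 1.62e-06). With LPS in WT it differed by 0.89 ± 0.16 (1.85-fold, under the cutoff of 2, adjusted p = 0.0002). Cd93, a receptor once taken for a C1q receptor, fell by 1.22 ± 0.12 in KO against WT (adjusted p = 1.14e-06) and fell by 1.28 ± 0.13 in KOL against WTL (adjusted p = 1.44e-06). With LPS it fell by 1.3 ± 0.12 in WT (adjusted p = 3.12e-07) and fell by 1.364 ± 0.125 in KO (adjusted p = 2.61e-07). Itgax, the CD11c subunit of complement receptor 4, rose by 0.83 ± 0.08 in KO against WT (edgeR adjusted p = 1.29e-06), while Itgam and Itgb2 differed by 0.02 ± 0.16 and 0.07 ± 0.12 (adjusted p = 0.931 and 0.675). CD11c was also the protein the cells were enriched by. Lrp1, an uptake receptor, fell by 1.72 ± 0.15 with LPS in KO (adjusted p = 1.46e-07). With LPS in WT it differed by −0.72 ± 0.15 (1.65-fold lower, under the cutoff of 2, adjusted p = 0.000648). In KOL against WTL Lrp1 fell by 0.73 ± 0.15 (adjusted p = 0.00101) and Itgam fell by 0.68 ± 0.16 (adjusted p = 0.00337). Calr rose by 0.50 ± 0.06 in KO against WT (adjusted p = 1e-05). Cr1l and C1qbp passed no fold cutoff in the 4 comparisons, with log2 values from 0.33 to 0.55 and from −0.25 to 0.03. Named after their values were seen, Hc (the C5 gene) and C2 were the 2 called higher with LPS in WT. C2 averaged 11.3 normalized counts, with at most 18 expected counts in any library, and is given no fold or p. Hc passed the filter only through LPS-treated libraries and is also given no fold or p. It had at most 3 expected counts in any WT or KO library and 10.7 ± 3.75 normalized counts in WTL. C5ar2, the second C5a receptor, and Colec12 were lower with LPS in WT beside Cd93. Colec12 differed by −1.04 ± 0.32 (edgeR adjusted p = 0.0109). C5ar2 passed the filter only through libraries without LPS and is given no fold or p. It had 35.9 ± 3.83 normalized counts in WT and 5.10 ± 2.54 in WTL.

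The patterns of a few members were compared with those of 9338 genes of at least 100 normalized counts on average, by the root mean square distance between log2 profiles centred over the 12 libraries. C1ra had no close neighbour among them: Rex1bd was nearest at 0.662, followed by Rbm45 at 0.953 and Tlr1 at 0.964. C1rl, at 83.1 normalized counts on average, was left out by the minimum of 100. C1qa was nearest to Paf1 (0.0928), Uqcrfs1 (0.187) and Tnni3 (0.203). Cfb was nearest to Gm17334 (0.133), Gm20559 (0.140) and Met (0.166). C3 was nearest to P2ry13 (0.129), Arhgef12 (0.140) and Pggt1b (0.155), and C3ar1 to Zfyve26 (0.105), Heatr6 (0.122) and Wdfy1 (0.130). A distance of 0.1 means that profiles differ by about 0.1 log2 units in a typical library, and it says nothing of shared function.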

How the data were processed

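RNA was sequenced from 12 BMDC libraries, 3 for each of WT, WTL, KO and KOL. Reads were trimmed, aligned to mm10 with STAR and quantified with RSEM. The submitters' processing notes give STAR 2.5.1, whereas the study's reporting summary gives a later version, and which one made the files is not settled here. The authors deposited expected counts and TPM per gene. The labels name an rRNA depletion kit and the methods a stranded poly(A) kit, and the strand setting of RSEM is not given in the sources used here, so reads of overlapping genes may be shared. Expected counts were rounded and tested with edgeR 4.0.16 (R 4.3.3; TMM, filterByExpr by group, quasi-likelihood, all 12 libraries, no covariates), with Benjamini-Hochberg adjustment over 14008 genes; an interaction was called at an adjusted p under 0.05 with no fold cutoff. SE is the log2 fold change over the root of F. TPM served for levels between genes. Totals of 12769773 to 16586334 expected counts set the counting precision. Alternatives were DESeq2 1.42.0, limma 3.58.1 on log2(TPM + 1) or log2(TPM + 0.1), other scalings and filters, no fold cutoff, only the 6 libraries compared, summed paralogs, a replicate block and leaving out each library. Positions came from GENCODE M21 and promoter windows from RefSeq. Named genes were all members, listed complement genes of at least 100 normalized counts on average, tested neighbours within 200000 bases, and the 3 genes most like each of 5 members. Members and lists were chosen with earlier results of these data known. Scripts were tested on simulated data.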

Additional observations from a re-analysis of the deposited data

Results flagged for a closer look

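The LPS response differed between KO and WT (edgeR interaction, adjusted p under 0.05 over all genes) for 3 members, apart from C1ra, and 6 other listed complement genes, with values given as the log2 response in KO minus that in WT. For C5ar1 the difference was 1.43, and it was called in 21 of 21 settings. For C1qc it was 0.57, called in 13 of 21, and for C3ar1 it was −0.53, called in 16 of 21. Among the other complement genes, of which 5 had at least 100 normalized counts on average, Clu differed by 1.18 (18 of 21), Lrp1 by −0.997 (18 of 21) and Itgax by −0.62 (20 of 21). Itgam differed by −0.70 and Itgb2 by −0.53, each called in 5 of 21 settings, with adjusted p up to 0.165 and 0.306. C5ar2, named after its values were seen and with at most 43 expected counts, differed by 1.75 and was called in 9 of 18 settings. It passed the filter only through libraries without LPS, so its difference is a description.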

How the results depend on the processing

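Of 517 values recomputed under other settings 462 kept their direction and side of the threshold, as did 508 of 540 with 1 library left out, and the cause of the others was not tested beyond what each setting changes by construction. The number of members called higher in WTL against WT went from 2 to 1 by library size alone and in the 3 limma settings and to 4 with no fold cutoff, with 1 to 2 when a library was left out (1 without any WT replicate). Dropping the fold cutoff also took it from 3 to 5 for KOL against WTL, and from 3 to 6 for LPS in KO. For the interaction, members called higher went from 3 to 1 in the 3 limma settings and to 1 without KO replicate 1 or KOL replicate 3, within 1 to 4 with a library left out, and those called lower from 1 to 2 with no filter and to 0 in the limma settings, within 0 to 2 with a library left out. Directions turned by library size alone in WTL against WT for C1qa (−0.32), C1qb (−0.21) and C1ra (−0.34), in KOL against KO for C3ar1 (−0.30) and in the interaction for Cfb (0.0803). On log2(TPM + 1), with or without a filter, and on log2(TPM + 0.1), they turned in WTL against WT for C1qa (−0.30, −0.34), C1qb (−0.22, −0.23), C1ra (−0.34, −0.36) and C3 (−0.0324, −0.0327), in KOL against KO for C1qc (−0.0696, −0.0725) and C3ar1 (−0.37, −0.38), and in the interaction for Cfb (0.24, 0.25). With 1 library left out, uncalled values spanned 0 for C1s1 in WTL against WT (−0.31 to 0.15) and in the interaction (−0.50 to 0.0182), C3 in KOL against WTL (−0.17 to 0.31), C3ar1 in KOL against KO (−0.0187 to 0.13) and Cfb in the interaction (−0.26 to 0.14). The replicate numbers did not pair the libraries (r = −0.33 to 0.13 over 18 pairs), and with the replicate block the member counts stayed at 2 and 0 (WTL against WT), 5 and 3 (KO against WT), 3 and 0 (KOL against KO), 3 and 3 (KOL against WTL) and 3 and 1 (interaction). For the other listed complement genes the block moved the interaction from 2 to 1 higher and from 4 to 2 lower and no other count. Over all settings, their numbers called higher and lower ranged over 0 to 5 and 1 to 4 (WTL against WT), 4 to 10 and 2 to 4 (KO against WT), 1 to 4 and 2 to 7 (LPS in KO), 0 to 6 and 4 to 6 (CTCF depletion with LPS) and 1 to 2 and 1 to 4 (interaction). The requirement of 10 counts in every library removed C1ra, whose 5 to 30 counts in CTCF-deficient libraries limit the precision of its fold.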
